A study of Homo sapiens with 6 samples.

Results

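The genes described here are 10 targets of the ATF6 and XBP1 branches of the unfolded protein response. They are HSPA5, HSP90B1, XBP1, DNAJB9, DNAJC3, HERPUD1, SDF2L1, HYOU1, PDIA4 and CALR, matched by symbol among the 25277 genes of the expression table. They were selected because the libraries of guide 1 and guide 2 in Jeko differ for this response, so the difference between those libraries is given below as a description and was not tested. Expression was given as FPKM, a fragment rate corrected for transcript length and sequencing depth. All 10 reached the filter, a mean over the libraries of 1 FPKM or more, and so entered the fits with 11400 genes in all. The RNA-seq compared derivatives of Jeko and of Rec-1, established human lines from mantle cell lymphoma, which is a cancer of B cells. Stable derivatives were made with Cas9 and a tet-on vector, in which doxycycline switches on the guide. The vector was empty in 1 control per line and held 1 of 2 single guide RNAs (sgRNAs) against the nuclear receptor gene NR4A1 in the others. All 6 libraries, controls included, came from cells given doxycycline for 48 h, and each line and vector gave 1 library. The labels do not say whether a derivative was 1 clone or a pool, and the guide sequences were not analysed here.

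Secreted and membrane proteins fold in the endoplasmic reticulum (ER) with the help of chaperones, and B cells on the way to antibody secretion enlarge this machinery. When unfolded proteins build up, the sensor IRE1 (gene ERN1) splices XBP1 mRNA into the form that encodes an active transcription factor, and ATF6 is cut to release another. Both raise genes of ER folding, degradation and transport, while the sensor PERK (EIF2AK3) slows translation and raises ATF4 and its targets. Gene-level values do not separate spliced from unspliced XBP1 mRNA.

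ATF6, with the CCAAT-binding factor NF-Y, is known to act on the ER stress response element, CCAAT followed by 9 bases and CCACG. A shorter form, ATTGG followed by 1 base and CCACG, is called element II. The matching stretches of the promoters are shown because the 10 genes are grouped here by these factors. Promoters were RefSeq windows from 250 bases before to 50 after each gene's start (GRCh38.p14), searched on both strands, and all 10 genes had one. The stretches below were located by exact match in GRCh37, are written on the strand where the motif reads forward, and have the boxes in capitals; those of HSP90B1 are shorter because a GENCODE transcript that starts further upstream covers them.
HSPA5 (chr9:128003650-128003708, minus strand): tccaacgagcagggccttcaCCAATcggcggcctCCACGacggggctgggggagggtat
HSP90B1, distal (chr12:104323989-104324017, plus strand): cctgaCCAATcggaaggagCCACGcttcg
HSP90B1, proximal (chr12:104324094-104324122, minus strand): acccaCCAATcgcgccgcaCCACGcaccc
XBP1 (chr22:29196571-29196629, minus strand): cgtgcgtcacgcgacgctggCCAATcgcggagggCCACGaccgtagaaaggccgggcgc
CALR (chr19:13049178-13049236, minus strand): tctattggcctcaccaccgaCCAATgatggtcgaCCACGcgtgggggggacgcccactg
HERPUD1, element II (chr16:56965917-56965967, plus strand): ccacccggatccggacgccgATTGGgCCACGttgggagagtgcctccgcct
SDF2L1, element II (chr22:21996383-21996433, minus strand): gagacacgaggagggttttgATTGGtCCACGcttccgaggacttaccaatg
HYOU1, element II, distal (chr11:118928071-118928121, plus strand): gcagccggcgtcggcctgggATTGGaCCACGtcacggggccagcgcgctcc
HYOU1, element II, proximal (chr11:118927965-118928015, plus strand): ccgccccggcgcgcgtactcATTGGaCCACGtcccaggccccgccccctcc

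The first element was found in the windows of 4 of the 10 genes and in 0.0916% of the 27305 gene symbols with a window. Element II was found in the other 3 genes shown and in 0.0696% of symbols. Together these were 7 of 10 genes against 44 symbols, or 0.161%, and the 44 include these 7. The 10 genes are grouped by factors known to act on such elements, so nothing is read from their share. The windows of DNAJB9, DNAJC3 and PDIA4 did not hold these letters. The unfolded protein response element, TGACGTG followed by G, known to bind XBP1, was in 0.927% of symbols and in the HYOU1 window, where it overlaps the distal element II. The box CCACG by itself was in all 10 windows but also in 42.1% of symbols, and it is part of every element counted above.

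**Figure D1:**
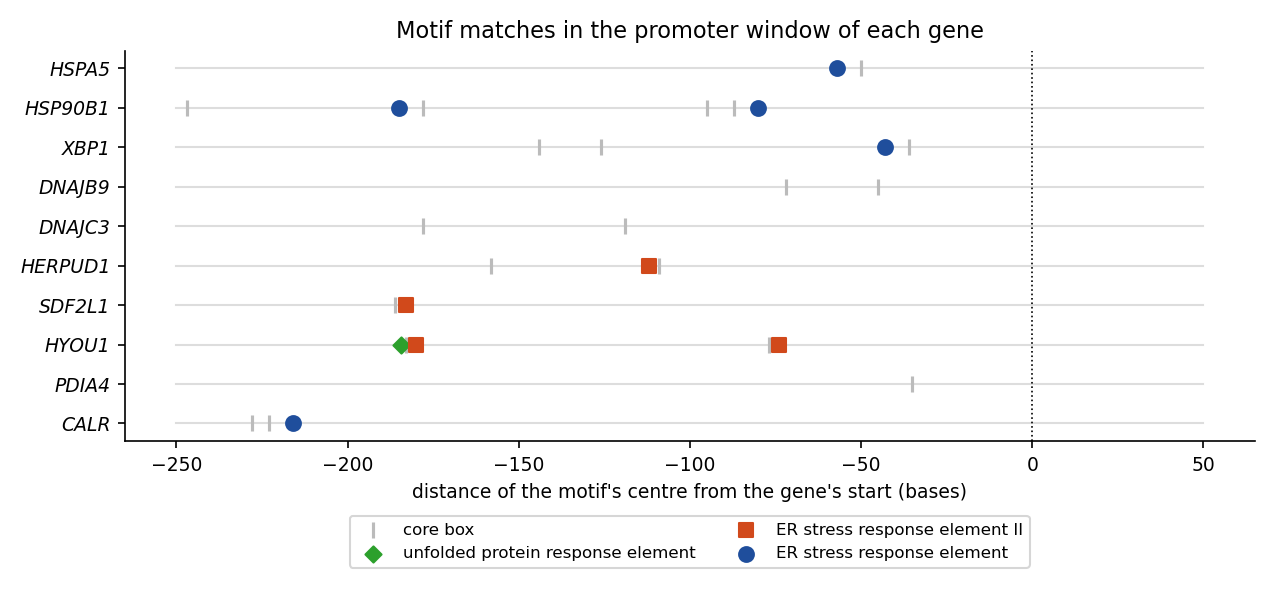
Each row is the promoter window of 1 gene, and the axis gives the distance in bases of the centre of a match from the gene's start (dotted line). Circles are the ER stress response element, squares element II, the diamond the unfolded protein response element and grey ticks the 5-base core box; for XBP1 and PDIA4, which have 2 windows each, the first is drawn. The elements lie between 34 and 225 bases before the start.

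The library labelled Rec-1 control was unlike the libraries labelled Rec-1 sgRNA. Which of them fits its label was not tested. Across 10319 protein-coding genes its log2 values correlated at 0.988 with the Jeko control and at 0.805 and 0.811 with Rec-1 sgRNA 1 and 2, while the Rec-1 sgRNA pair correlated at 0.976. Cyclin D1 (CCND1), the gene activated in most mantle cell lymphomas, was at 442 to 815 FPKM in the Jeko libraries, 495 FPKM in the library labelled Rec-1 control and 0.696 and 0.592 FPKM in Rec-1 sgRNA 1 and 2. A difference between a Rec-1 sgRNA library and the library labelled Rec-1 control therefore cannot be told apart from a difference between the lines. NR4A1 mRNA was not lower in every library labelled sgRNA, though a Cas9 cut need not lower the mRNA of its target. It was at 5.99 FPKM in the Jeko control, 3.89 in Jeko sgRNA 1 and 4.44 in Jeko sgRNA 2. In Rec-1 it was at 11.6 FPKM in the library labelled control, 27.4 in sgRNA 1 and 12.7 in sgRNA 2. B-cell markers were at 1 FPKM or more for 7 or 8 of 9 genes in every library, with CD5 at 0.0785 FPKM or below. The 4 T-cell markers examined summed to 2.11 to 5.43 FPKM in the Jeko libraries and the library labelled Rec-1 control, and to 102 and 119.8 FPKM in the Rec-1 sgRNA libraries, where CD3D led with 66.3 and 95.3 FPKM and CD2 was at 0.0288 and 0. Their part in the results below was not tested. Depth relative to the Jeko control, read from the steps of low values, was 0.872 in Jeko sgRNA 1, 1.10 in Jeko sgRNA 2, 1.1 in the library labelled Rec-1 control and 0.687 in Rec-1 sgRNA 2, with no such steps found for Rec-1 sgRNA 1.

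The genes were low in both controls and in Jeko sgRNA 1 and higher in Jeko sgRNA 2 and both Rec-1 sgRNA libraries. All 10 had the first 3 of these as their lowest libraries, in some order, against 11.6% of the 11400 genes tested. This order was noticed after the values were seen and was not tested. The Jeko guide libraries, for whose difference the genes were chosen, enter it, so nothing is read from the count. In bulk RNA, a change in the mix of cells and a change in RNA per cell cannot be told apart. The values below are FPKM, which are scaled by transcript length, so that levels can also be compared between genes. Coordinates are GRCh37, all 10 genes are protein-coding, and transcript lengths are those of GENCODE. HSPA5 and HSP90B1 have near-identical pseudogene copies, and how reads shared with these were assigned is not given in the sources used here.

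XBP1 (22:29190543-29196585, minus strand) encodes the transcription factor of the IRE1 branch. It was at 117 FPKM in the Jeko control, 66.0 in Jeko sgRNA 1, 189 in Jeko sgRNA 2, 158 in the library labelled Rec-1 control, 163 in Rec-1 sgRNA 1 and 216 in Rec-1 sgRNA 2. Jeko sgRNA 1 stood alone at the low end, at 56.4% of the Jeko control. The other 5 libraries lay within 117 to 216 FPKM, and Rec-1 sgRNA 1 was at 103% of the library labelled Rec-1 control.

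HSPA5 (9:127997132-128003661, minus strand) encodes BiP, the main Hsp70 chaperone of the ER, which also holds the stress sensors inactive. It was at 114 FPKM in the Jeko control, 104 in Jeko sgRNA 1 and 333 in Jeko sgRNA 2. In Rec-1 it was at 143 FPKM in the library labelled control, 409.9 in sgRNA 1 and 494 in sgRNA 2. Jeko sgRNA 1 thus lay below both controls, and the lowest of the other 3 sgRNA libraries was 2.33 times the higher of the controls. HSP90B1 (12:104323885-104347709, plus strand) encodes GRP94, the Hsp90 chaperone of the ER. It was at 287, 298 and 664 FPKM in the Jeko control, sgRNA 1 and sgRNA 2 and at 252, 719.7 and 779 FPKM in the corresponding Rec-1 libraries. HYOU1 (11:118914899-118927938, minus strand) encodes GRP170, a large Hsp70-like protein that exchanges the nucleotide of BiP. It was at 23.3, 19.6 and 72.9 FPKM in Jeko and at 25.0, 78.4 and 147 FPKM in Rec-1, in the same order. These 3 genes had the same split of libraries, and HYOU1 was the one in which the Rec-1 guides were furthest apart.

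DNAJB9, DNAJC3 and SDF2L1 encode partners of BiP. DNAJB9 (7:108210311-108215294, plus strand), or ERdj4, delivers clients to BiP and helps keep IRE1 inactive. It was at 12.8, 11.6 and 38.1 FPKM in the Jeko control, sgRNA 1 and sgRNA 2 and at 21.3, 27.8 and 25.2 FPKM in the Rec-1 libraries. Its highest library was Jeko sgRNA 2, and the 3 Rec-1 libraries lay within a ratio of 1.31. DNAJC3 (13:96329393-96447242, plus strand), or p58IPK, is a lumenal co-chaperone also described as an inhibitor of PERK. It was at 6.92, 9.29 and 25.7 FPKM in Jeko and at 7.08, 104 and 139 FPKM in Rec-1. Across libraries its highest value was 20.1 times its lowest, the widest range of the 10 genes, and the Rec-1 sgRNA libraries stood far above all others. SDF2L1 (22:21996591-21998588, plus strand), a stabiliser of the BiP cycle, was at 27.6, 20.4 and 49.9 FPKM in Jeko and at 16.7, 52.9 and 49.7 FPKM in Rec-1. Jeko sgRNA 2 and the Rec-1 sgRNA libraries lay together between 49.7 and 52.9 FPKM on this gene.

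PDIA4 (7:148700154-148725754, minus strand), or ERp72, forms and exchanges disulfide bonds. It was at 78.2, 111 and 188 FPKM in the Jeko control, sgRNA 1 and sgRNA 2 and at 53.3, 131 and 135 FPKM in Rec-1. It was the gene with the largest positive difference of Jeko sgRNA 1 from its control, 1.42 times. CALR (19:13049392-13055303, plus strand), calreticulin, binds sugars on folding glycoproteins and stores calcium. It was at 359, 343 and 455 FPKM in Jeko and at 229, 635 and 813 FPKM in Rec-1. The Jeko libraries were close together on CALR, with Jeko sgRNA 2 at 1.27 times the control. HERPUD1 (16:56966054-56978776, plus strand) organises the membrane complex of ER-associated degradation, in which misfolded proteins are passed to the cytosol, and it is also known as a target of ATF4. It was at 122, 38.3 and 167 FPKM in Jeko and at 162, 227 and 245 FPKM in Rec-1. As for XBP1, 1 library stood alone, since Jeko sgRNA 1 was at 31.4% of the Jeko control while the other 5 lay between 122 and 245 FPKM.

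**Figure D2:**
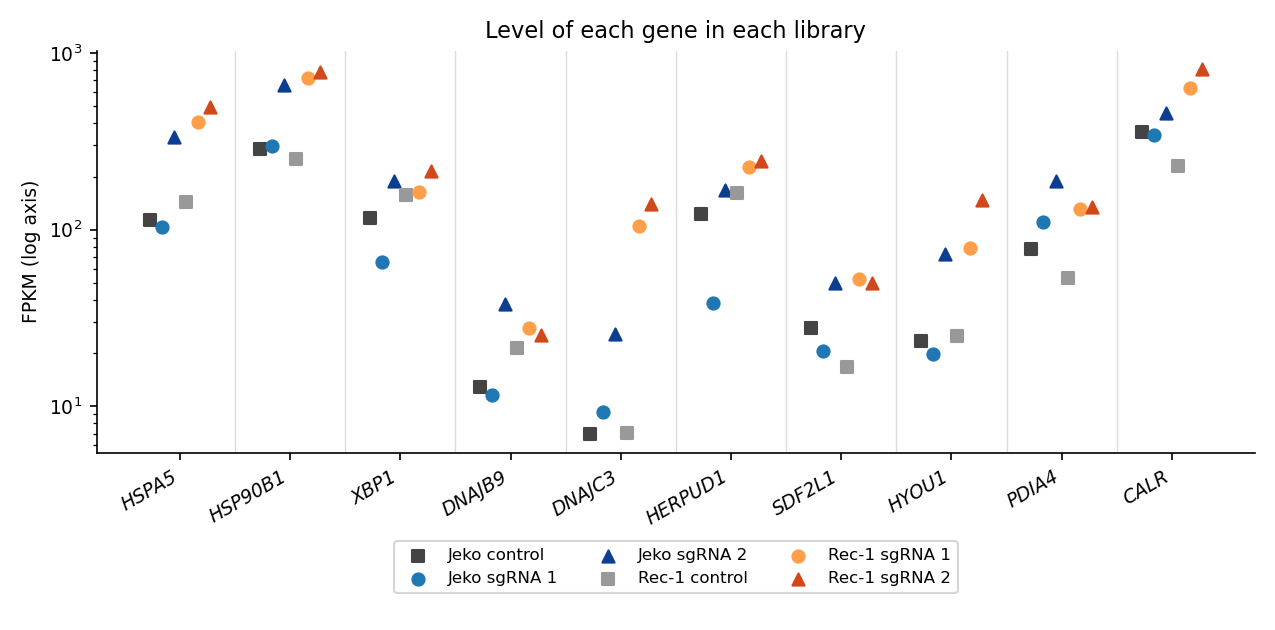
FPKM on a log axis of each of the 10 genes in the 6 libraries, 1 point per library; squares are the controls, circles sgRNA 1 and triangles sgRNA 2. For most genes Jeko sgRNA 1 lies beside the controls and Jeko sgRNA 2 beside the Rec-1 sgRNA libraries, with DNAJC3 far higher in Rec-1 sgRNA 1 (104 FPKM) and 2 (139 FPKM) and HERPUD1 lowest in Jeko sgRNA 1 (38.3 FPKM).

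Differences from the control of the same line were then taken as log2(FPKM + 1), on which 1 stands for 2-fold. With 1 control per line these are descriptions of pairs of libraries, without a test. In Jeko sgRNA 2, 6 of 10 genes were at least 2-fold higher than the control, where 4.30% of all genes tested were. They were DNAJC3 (1.75), HYOU1 (1.61), HSPA5 (1.54), DNAJB9 (1.505), PDIA4 (1.25) and HSP90B1 (1.21), and SDF2L1 (0.83), XBP1 (0.69), HERPUD1 (0.45) and CALR (0.34) were below that size. In Jeko sgRNA 1, 0 of 10 were 2-fold higher (3.39% of all genes) and 1 was 2-fold lower (2.79% of all genes), HERPUD1 at -1.65. The members' median difference was -0.14 in Jeko sgRNA 1 and 1.23 in Jeko sgRNA 2, where the median of all genes tested was 0.00 in both. The choice of these genes rests on the Jeko sgRNA libraries, so nothing further is read from these counts. SDF2L1, whose transcript is the shortest of the 10 at 825 bases, was 1.25 higher in Jeko sgRNA 2 once the median difference of genes of like length was taken off.

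In Rec-1 sgRNA 1, 7 of 10 genes were at least 2-fold above the library labelled Rec-1 control (15.2% of all genes), and in Rec-1 sgRNA 2 also 7 of 10 (15.0% of all genes). In each they were HSPA5, HSP90B1, HYOU1, DNAJC3, SDF2L1, PDIA4 and CALR. DNAJC3 was highest, 3.71 and 4.12 on the log2 scale, or 14.8 and 19.6 times in FPKM. HYOU1 was 1.61 and 2.503 higher, CALR 1.47 and 1.82, and HSPA5 1.51 and 1.78. XBP1 (0.05 and 0.45), DNAJB9 (0.37 and 0.23) and HERPUD1 (0.49 and 0.59) were the 3 genes under 2-fold with both guides. The members' medians were 1.49 and 1.57, beside -0.02 and 0.00 for all genes. Set against the Jeko control in place of the library labelled Rec-1 control, an alternative chosen after the data were seen, 5 of 10 genes were 2-fold higher in each Rec-1 sgRNA library, where 16.0% of all genes were in each.

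Between the libraries labelled control, none of the 10 genes was 2-fold apart, where 2.51% of all genes were. Their differences, Rec-1 minus Jeko, ran from -0.70 for SDF2L1 to 0.70 for DNAJB9. Jeko sgRNA 2 was at least 2-fold above the library labelled Rec-1 control for 6 of 10 genes (3.44% of all genes), as many as above its own control. Against that library Jeko sgRNA 1 was 2-fold higher for PDIA4 (4.30% of all genes) and 2-fold lower for XBP1 and HERPUD1 (5.14% of all genes).

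**Figure D3:**
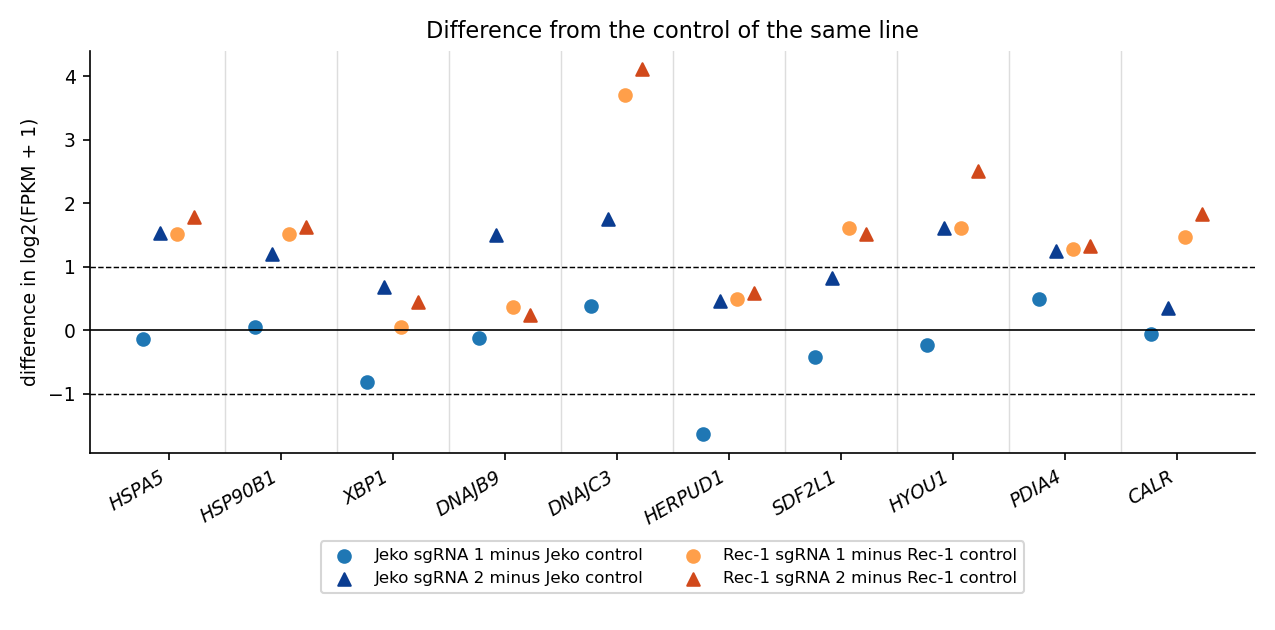
Difference in log2(FPKM + 1) of each sgRNA library from the control of its line, for each of the 10 genes; circles are sgRNA 1, triangles sgRNA 2, and dashed lines mark 2-fold. Jeko sgRNA 1 lies near or under 0 with HERPUD1 at -1.65, and XBP1, DNAJB9 and HERPUD1 stay under the upper line in both Rec-1 sgRNA libraries.

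The guides were compared with each other in each line. In Jeko, the comparison for which the genes were chosen, 8 of 10 were at least 2-fold higher with guide 2 than with guide 1 (2.89% of all genes), and nothing is read from this count. The FPKM ratio of guide 2 to guide 1 was 4.37 for HERPUD1, 3.71 for HYOU1, 3.29 for DNAJB9, 3.22 for HSPA5 and 2.86 for XBP1. It was 1.70 for PDIA4 and 1.33 for CALR, the genes under 2-fold. For HERPUD1 and XBP1 the ratio combined a value under the control with guide 1 and a value above it with guide 2, while for HSPA5, HSP90B1, HYOU1 and DNAJB9 guide 1 was within 0.23 of the control on the log2 scale. In Rec-1, whose guide difference was not the stated reason for the choice, 0 of 10 genes were 2-fold apart (3.88% of all genes were, in either direction). Earlier results of these data were known at the choice, and nothing is read from this count either. The Rec-1 differences, guide 2 minus guide 1, ran from -0.14 for DNAJB9 to 0.89 for HYOU1, with a median of 0.19 and 8 of 10 above 0. HYOU1 was 1.87 times higher with guide 2 in Rec-1, and the other 9 genes were within 1.33 times. Whether the difference between guides differs between the lines was not tested, since each guide has 1 library per line.

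**Figure D4:**
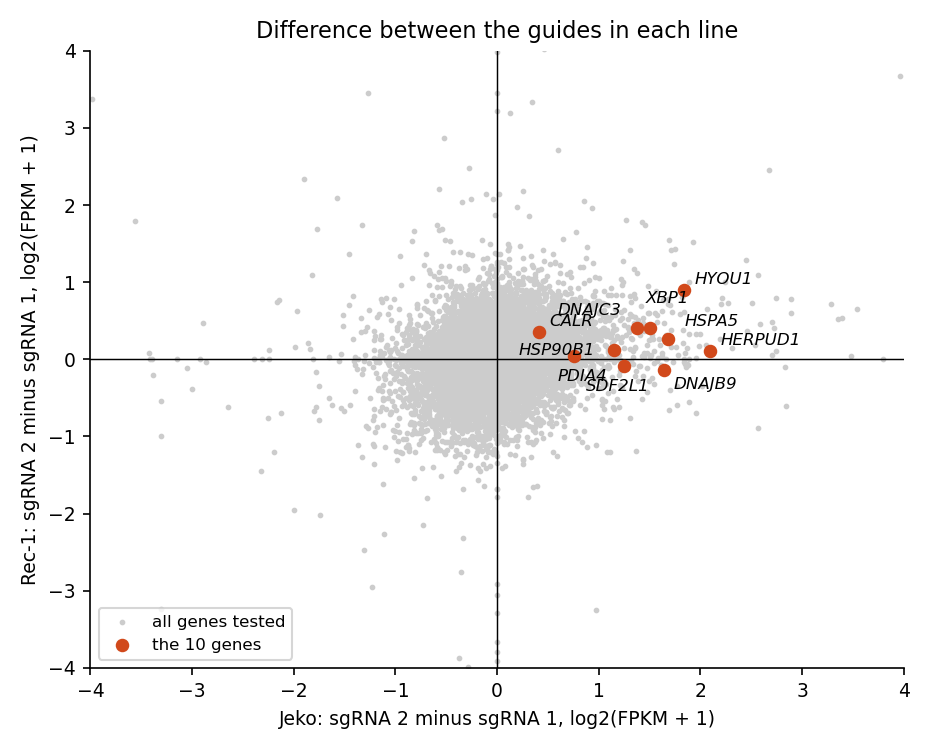
Each point is a gene, placed by its difference between guide 2 and guide 1 in Jeko (horizontal) and in Rec-1 (vertical), in log2(FPKM + 1); red points are the 10 genes, grey points all genes tested, of which 136 lie outside the range drawn. The 10 genes spread from 0.41 (CALR) to 2.10 (HERPUD1) along the Jeko axis and from -0.14 (DNAJB9) to 0.89 (HYOU1) along the Rec-1 axis.

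The effect of the sgRNAs over both lines was fitted with limma across all genes, 4 sgRNA libraries against 2 controls with the line as covariate. None of the 10 genes passed an adjusted p of 0.05, where 0.246% of all genes, 28 of 11400, did. The Jeko guide difference by which the genes were chosen enters the spread of this fit. So does any difference between the lines in the sgRNA effect. Both raise the standard errors and work against a call, and their shares were not separated. An unadjusted p under 0.05 was reached by 3 of the 10 and by 21.1% of all genes. PDIA4 was 1.09 higher on the log2 scale (SE 0.27, limma adjusted p = 0.177) and higher in 4 of 4 sgRNA libraries. DNAJC3 was 2.49 higher (SE 0.73, limma adjusted p = 0.193), also in 4 of 4, and HSP90B1 was 1.10 higher (SE 0.39, limma adjusted p = 0.215). HSPA5 (1.17, SE 0.51) and HYOU1 (1.37, SE 0.63) had larger standard errors, with limma adjusted p of 0.251 and 0.260 and values above the control in 3 of 4 libraries. XBP1 (0.09, SE 0.44) and HERPUD1 (-0.03, SE 0.62) were the genes nearest 0. The value of HERPUD1 was 0.50 without Jeko sgRNA 1 and 0.54 without the Jeko control. The genes were chosen for their difference between the Jeko guides, so leaving out Jeko sgRNA 1 fixes the direction in which their values move, and none of the 10 passed then. Without the Jeko control, when the fit compares the Rec-1 sgRNA libraries with the library labelled Rec-1 control, CALR (1.65, SE 0.30, limma adjusted p = 0.0345) and DNAJC3 (3.91, SE 0.64, limma adjusted p = 0.0282) passed, as did 19.1% of all genes.

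Whether the sgRNA effect differed between the lines was asked with the interaction in a limma fit of 4 group means. None of the 10 genes passed, where 6.94% of all genes did, and 2 had an unadjusted p under 0.05, where 21.9% of all genes had one. Here too the choice of genes raises the spread and works against a call. The difference from the library labelled control was larger in Rec-1 by 1.51 for CALR (SE 0.43, limma adjusted p = 0.151). For DNAJC3 it was larger by 2.85 (SE 0.91, limma adjusted p = 0.187). The library labelled Rec-1 control lies close to the Jeko control. A larger sgRNA effect in Rec-1 therefore cannot be told apart from a difference between the lines. For the other 8 genes the limma adjusted p was 0.408 or above, and their standard errors of 0.54 to 1.30 leave room for differences of more than 2-fold. In the same fit the Rec-1 sgRNA libraries were compared with the Jeko sgRNA libraries, 2 against 2. DNAJC3 passed, and was 2.88 higher in Rec-1 (SE 0.53, limma adjusted p = 0.0299), with both Rec-1 libraries above both Jeko libraries. With both Jeko guides in the fit, the guide difference by which the genes were chosen enters the spread of this test and not its contrast. DNAJC3 was the 1 gene of 10 called higher, where 12.8% of all genes were. Its limma adjusted p ranged from 0.00478 to 0.156 over 11 alternatives. The call was lost without Jeko sgRNA 1 (2.19, limma adjusted p = 0.0781), without Rec-1 sgRNA 1 (3.08, 0.148), without Rec-1 sgRNA 2 (2.67, 0.156) and with no filter on low values (0.0643). CALR was 0.86 higher in Rec-1 (SE 0.25, limma adjusted p = 0.0732). It passed (0.0395) when protein-coding genes alone were tested, a setting that called 2 of the 10 and 1607 of 10319 genes higher. HERPUD1 was 1.54 higher (SE 0.75, limma adjusted p = 0.201). Without Jeko sgRNA 2 it was 2.59 higher (limma adjusted p = 0.0335), but that fit sets Rec-1 against Jeko sgRNA 1 alone, whose spread is assumed to be that of the other groups, and the choice of genes then enters the contrast, so nothing is read from it. PDIA4 was the gene with a negative value, -0.12 (SE 0.31).

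Among themselves the 10 genes followed the same order of libraries closely, though not equally. Over the 6 libraries, all 45 pairs had a positive Pearson correlation of log2(FPKM + 1), with a median of 0.781. The highest was 0.984 between HSPA5 and HYOU1 and the lowest 0.149 between PDIA4 and HERPUD1. These are descriptions over 6 points that share libraries, depth and the choice of genes. Beyond the 10, the protein-coding genes averaging 10 FPKM or more whose pattern was most like HSPA5 were EDEM2 (r = 0.987), TMEM214 (0.986), TCEA1 (0.985), EAF1 (0.985) and HM13 (0.985), of 5556 ranked over the same 6 libraries. EDEM2, a lectin-like protein that marks glycoproteins for degradation, was at 16.5, 14.5 and 23.5 FPKM in the Jeko control, sgRNA 1 and sgRNA 2 and at 15.8, 27.8 and 29.3 FPKM in the Rec-1 libraries. Closest to the mean of the 10 genes were EDEM2 (0.996), C19orf10 (0.993), MANF (0.991), PPIB (0.990) and OSTC (0.988). PPIB, the cyclophilin of the ER, was at 452, 376 and 836 FPKM in Jeko and at 387, 1154 and 1200.2 FPKM in Rec-1, the same split of libraries as HSPA5.

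Other genes of the secretory pathway were counted from lists by function. Of 28 other ER chaperones and folding enzymes, 6 were at least 2-fold higher than control in Jeko sgRNA 2, 15 in Rec-1 sgRNA 1 and 18 in Rec-1 sgRNA 2, and none in Jeko sgRNA 1. Of all genes tested, 4.30%, 15.2%, 15.0% and 3.39% were, which also applies to the lists that follow in this paragraph. Their median differences were 0.83, 1.13, 1.26 and -0.18 in that order, lower than those of the 10 genes in the first 3 libraries. The choice of the 10 genes rests on the Jeko sgRNA libraries, so nothing is read from this. PDIA6 (0.61, 1.19 and 1.36), a disulfide isomerase, and P4HB (1.13, 1.18 and 1.18), the most studied enzyme of that family, were among the 4 most abundant. So was ERP29, a chaperone-like member of the family, which was below control in Jeko sgRNA 2 and both Rec-1 sgRNA libraries (-0.15, -1.10 and -0.64). Only in Rec-1 sgRNA 1 was ERP29 at least 2-fold lower. Of 34 genes of signal recognition, translocation and ER to Golgi transport, 12 were 2-fold higher in Jeko sgRNA 2, 11 in Rec-1 sgRNA 1 and 16 in Rec-1 sgRNA 2, and none in Jeko sgRNA 1. Their medians were 0.75, 0.59, 0.89 and 0.12. SEC11C, a subunit of the signal peptidase and the most abundant of these, was at 812, 569 and 1603.3 FPKM in Jeko and at 703, 168 and 255 FPKM in Rec-1. Of 21 genes of ER-associated degradation, 4, 5 and 4 were 2-fold higher (4.30%, 15.2% and 15.0% of all genes) and none in Jeko sgRNA 1. Their medians were 0.67, 0.32, 0.72 and 0.01. SYVN1, the ubiquitin ligase HRD1 of that pathway, was 0.89, 1.11 and 0.75 higher. In the limma fit of the sgRNA effect, 0 genes of these 3 lists passed, with 6, 11 and 4 above 0 at an unadjusted p under 0.05, where 10.5% of all genes were, and 1 gene of ER-associated degradation below 0. Between the sgRNA libraries of the lines, 9 of the 83 genes of these lists passed in limma as higher in Rec-1, or 10.8%, which is no more than the 12.8% of all genes. Among them were the folding enzymes and chaperones UGGT2 (3.50), PDIA2 (3.54), CRELD2 (3.09), ERO1L (1.51), ERO1LB (1.44) and CRELD1 (1.06), the degradation enzyme UBE2J1 (1.16), and KDELR1 (1.54), the receptor that returns BiP and GRP94 to the ER; the limma adjusted p of these ran from 0.00158 to 0.0404.

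Genes downstream of PERK and ATF4 had another pattern across the Jeko libraries than most of the 10. Of 23 such genes, 13 were at least 2-fold lower than control in Jeko sgRNA 1 (2.79% of all genes) and 0 in Jeko sgRNA 2, with medians of -1.27 and 0.10. ATF4, the factor itself, was at 658, 379 and 761 FPKM in the Jeko control, sgRNA 1 and sgRNA 2. All 23 were higher with guide 2 than with guide 1 in Jeko, by a median of 1.48. HERPUD1, at -1.65 in Jeko sgRNA 1 and 0.45 in Jeko sgRNA 2, had differences within the range of these genes in both libraries (-3.42 to 0.38 and -0.89 to 1.06). These ranges are wide, and XBP1 (-0.82 and 0.69), SDF2L1 (-0.42 and 0.83) and CALR (-0.07 and 0.34) were within them too. HSPA5, at -0.14 and 1.54, was above the range in Jeko sgRNA 2, as were the rest of the 10 genes. In Rec-1 the medians of this list were -0.53 and -0.22. EIF4EBP1 and ATF3 were listed at 0 in both Rec-1 sgRNA libraries, and were the 2 genes of the list that passed as lower there than in the Jeko sgRNA libraries (limma adjusted p = 0.00174 and 0.0346). The sensors and regulators, 14 genes, had median differences of 0.32 and 0.42 for the Jeko guides and -0.15 and -0.01 for the Rec-1 guides. ERN1, which encodes IRE1, was at 4.83, 8.54 and 34.4 FPKM in Jeko and at 10.2, 14.5 and 9.56 FPKM in Rec-1. Like DNAJB9 and PDIA4 among the 10 genes, ERN1 was highest in Jeko sgRNA 2. It was chosen for mention after its values were seen. Of the sensors and regulators TRAF2 (1.38, limma adjusted p = 0.0109) was higher and WFS1 (-3.98, limma adjusted p = 0.00159) lower in the Rec-1 than in the Jeko sgRNA libraries.

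**Figure D5:**
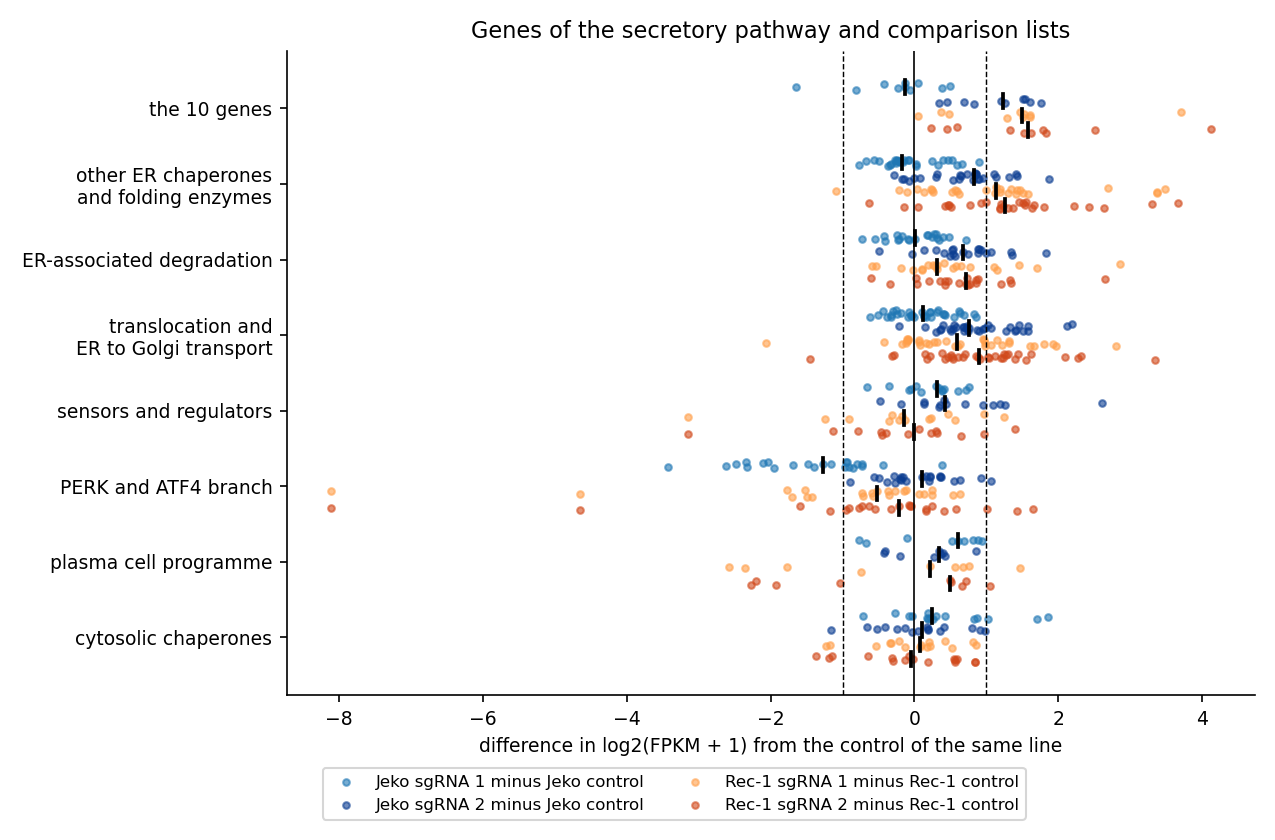
Each point is a gene, placed by its difference in log2(FPKM + 1) from the control of its line; rows are the 10 genes and 7 comparison lists, colours are the 4 sgRNA libraries, black bars are medians and dashed lines mark 2-fold. The 10 genes have the highest medians in Jeko sgRNA 2 (1.23) and in both Rec-1 sgRNA libraries (1.49 and 1.57), and the PERK and ATF4 list the lowest in Jeko sgRNA 1 (-1.27). The choice of the 10 genes rests on the Jeko sgRNA libraries, so nothing is read from their rank.

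The elements printed above were also looked for outside the 10 genes. Of the other symbols whose window held either element, 29 were in the expression table and 22 were tested. Among these 22, none was 2-fold higher in Jeko sgRNA 1, 4 were in Jeko sgRNA 2, 9 in Rec-1 sgRNA 1 and 8 in Rec-1 sgRNA 2. Of all genes tested, 3.39%, 4.30%, 15.2% and 15.0% were, in that order. The medians of the 22 genes were 0.05, 0.30, 0.54 and 0.66. The 10 genes were chosen by the Jeko sgRNA libraries, so nothing is read from these medians being lower than theirs in the last 3 libraries. DNAJC3, whose window held neither element, had the largest differences of the 10 in these 3 libraries, and XBP1, whose window held 1 element, was among the 3 smallest in each. Not all genes followed this order. HYOU1, with element II, was 1.61, 1.61 and 2.503 higher. DNAJB9, with neither element, was 1.505 higher in Jeko sgRNA 2 and 0.37 and 0.23 higher in Rec-1. PDIA4, also with neither, was 1.25, 1.28 and 1.32 higher. Whether the differences of the 10 genes go with the elements was not tested.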

How the data were processed

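The authors deposited FPKM, with 1 column per library, per the file headers; TopHat and hg19 are named in the submitters' processing notes, and the FPKM program, annotation and use of strand are not given in the sources used here. FPKM are not counts, so no counting interval was computed. Values were tested as log2(FPKM + 1), which understates changes of low genes, for genes averaging 1 FPKM or more, with limma 3.58.1 in R 4.3.3 (lmFit, eBayes with a mean trend) and Benjamini-Hochberg adjustment over 11400 genes. The fit was tested on simulated data. The guides serve as replicates, so p-values measure the spread between these libraries, which may be technical. The 10 genes and the lists were chosen with earlier results of these data known. Named genes were the 10, the 4 most abundant of each list (some given in counts alone), list genes passing a test (1 is not reported here), and the 5 closest in pattern. Of tested genes, 11029 matched GENCODE 44 (GRCh37). Alternatives were the pseudocount, the filter, median centring, protein-coding genes alone, transcript length, a guide-number block, the fold threshold, the other control, and each library left out. Python 3.11.15, pandas 2.3.3 and matplotlib 3.10.9 were used for the rest.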

Additional observations from a re-analysis of the deposited data

Results flagged for a closer look

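The difference between Rec-1 and Jeko in the sgRNA effect, on the log2 scale, stood out for these genes outside the 10, by the limma interaction or, for NR4A1, by direction. NR4A1 was lower than control in both Jeko sgRNA libraries and higher in both Rec-1 sgRNA libraries, a difference of 1.09 (SE 0.69, limma adjusted p = 0.438). UGGT2, a sensor of glycoprotein folding, differed by 3.50 (SE 0.28, limma adjusted p = 0.0112) and was at 9.31 and 11.7 FPKM in the Rec-1 sgRNA libraries. WFS1, an ER membrane protein, differed by -3.93 (SE 0.32, limma adjusted p = 0.0117) and was at 0.0380 and 0.0328 FPKM in the Rec-1 sgRNA libraries. EIF4EBP1, a translation repressor downstream of ATF4, differed by -7.13 (SE 0.57, limma adjusted p = 0.0112) and was listed at 0 there. SDC1, or CD138, differed by -2.97 (SE 0.45, limma adjusted p = 0.0406). For each, the library labelled Rec-1 control, which lies close to the Jeko control, enters the difference, and its part was not tested.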

How the results depend on the processing

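Counts of the 10 genes past 2-fold held within 1.5 times when the pseudocount was 0.1, medians were centred or transcript length was taken off. At 1.5-fold, 2 genes were lower in Jeko sgRNA 1 and 1 was higher with guide 2 than guide 1 in Rec-1 (none at 2-fold). Against the library labelled Rec-1 control, 1 gene was higher and 2 were lower in Jeko sgRNA 1. In limma's sgRNA effect, 28 genes passed in all; 12 did with no filter, 0 with protein-coding genes alone (2323 at an unadjusted p under 0.05) and 9 in a fit with a replicate block by guide, which called 0 of the 10. Guides share a number and no stated origin, and their deviations correlated at 0.0998 across 11400 genes. With each library left out, 11 to 2180 genes and 0 to 2 of the 10 passed. For the interaction 791 genes passed, 318 with a mean of at least 5 FPKM and 75 to 454 with a library left out; it could not be fitted without a control. Between the sgRNA libraries of the lines 2947 genes passed, 1549 with a mean of at least 5 FPKM and 803 to 2940 with a library left out, and of the 10 genes 0 with no filter, 2 with protein-coding genes alone and 0 to 2 with a library left out. Signs turned for HERPUD1's sgRNA effect (-0.60 to 0.54 with a library left out, above 0 without Jeko sgRNA 1 or the Jeko control) and XBP1's (-0.000142 with medians centred, -0.21 to 0.44 with a library left out, below 0 without Jeko sgRNA 2, the library labelled Rec-1 control or Rec-1 sgRNA 2), and for interactions of DNAJB9 (-1.20 to 0.43, above 0 without Jeko sgRNA 2) and XBP1 (-0.44 to 1.07, below 0 without Jeko sgRNA 1). Between the lines they turned for DNAJB9 (-0.51 to 1.13) and XBP1 (-0.011 to 1.49) without Jeko sgRNA 1 and PDIA4 (-0.50 to 0.26) without Jeko sgRNA 2. The cause was not tested.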

Other observations

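Cytosolic chaperones fold proteins outside the ER. HSPA8, the constitutive Hsp70 of the cytosol, was at 223 FPKM in the Jeko control, 808 in Jeko sgRNA 1 and 441 in Jeko sgRNA 2, and at 158, 183 and 128 FPKM in the Rec-1 libraries. It was highest in Jeko sgRNA 1, where HSPA5 was lowest. Of 16 such genes 3 were at least 2-fold higher in Jeko sgRNA 1 (3.39% of all genes) and none in the other 3 sgRNA libraries, while 1, 2 and 3 were at least 2-fold lower in Jeko sgRNA 2, Rec-1 sgRNA 1 and Rec-1 sgRNA 2, where 363, 1725 and 1646 of 11400 genes were. The medians from Jeko sgRNA 1 to Rec-1 sgRNA 2 were 0.24, 0.11, 0.08 and -0.05. Genes of the plasma cell programme, 9 in number, had medians of 0.61, 0.34, 0.22 and 0.50, but went both ways in every sgRNA library. With each Jeko guide 6 were higher and 3 lower, and with each Rec-1 guide 5 and 4. In Rec-1, 1 gene was at least 2-fold higher in each sgRNA library (15.2% and 15.0% of all genes). Of the 9 genes, 3 and 4 were at least 2-fold lower there, where 1725 and 1646 of 11400 genes were. Among them PRDM1, the master regulator of that programme, was 1.496 lower on the log2 scale in the Rec-1 than in the Jeko sgRNA libraries and IRF4 1.65 lower. These genes, with SDC1 (-3.05) and TNFRSF17 (-1.69), and HSPA8 (-1.96), BAG3 (-1.48) and CCT2 (-1.01) of the cytosolic list, passed that limma comparison, with adjusted p under 0.05.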
